A study of Homo sapiens with 6 samples.

Results

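The broad NME2 peaks described here were 417 regions called only after NME2 was induced in A549 cells, a human lung adenocarcinoma cell line. They were chosen by width and overlap: a peak of the list after induction had to span at least 300 bp, counted as end minus start, and to share no base with any peak of the list before induction. They were 417 of the 11545 peaks called after induction, and of 14086 peaks in both lists together. Of 483 peaks of this width called after induction, 417 (86.3%) overlapped no peak before induction, against 95.4% of all peaks called after induction. Overlap was part of the rule, so this difference is a description and was not tested. Of the 2541 peaks called before induction, 2005 (78.9%) overlapped none after induction. They were compared mainly with the 4671 peaks of 28 to 29 bp, the narrowest class, found only after induction.

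NME2, also called NM23-H2, is a nucleoside diphosphate kinase and a metastasis suppressor that is also known as a DNA-binding transcription factor with a preference for guanine-rich sequences in promoters. In chromatin immunoprecipitation followed by sequencing (ChIP-seq), DNA crosslinked to the protein is sheared, precipitated and sequenced, and a peak is a stretch of the genome where reads exceed those of a control. The width of a peak depends on how far the enriched reads spread, on shearing and on how the caller trims the boundaries.

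NME2 occupancy had been measured in 2 states, each with 2 NME2 libraries and 1 library made with nonspecific IgG, from cells taken at 48 h. After induction the cells carried a transfected plasmid for Myc-tagged NME2 (pcDNA3-NME2), a vector with a viral promoter that is active in most cell types, and the Myc tag was precipitated with a monoclonal antibody; the labels call the IgG of this state goat. Before induction the cells were untransfected, endogenous NME2 was precipitated with an antibody against the protein itself (anti-nm23-h2), and the IgG is labelled mouse. The Myc antibody is a mouse monoclonal, so the goat IgG was not of its species; both labels are kept as given. Antibody, transfection and NME2 level changed together and cannot be told apart. A label text shared by all samples also names an empty-vector control and the Myc antibody alone, which differs from the sample labels given here.

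One list of peaks was available per state, in coordinates of the hg18 genome build. Each entry gives a position and a running number but neither reads nor a score, so the lists do not show how many reads lie behind a peak or how replicates differed. The tests below compare classes of peaks within 1 list, not cultures, and neighboring peaks are not independent, so p-values are smaller than independent peaks would give. Intervals on shares are Wilson 95% intervals and cover counting error only. Annotation and sequence of this build were not used here, and the regions are given by position alone.

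The broad peaks were 3.79% (95% interval 3.44 to 4.16%) of the 11017 peaks found only after induction, and 13.3% of the bases these peaks covered. Their widths ran from 300 to 1646 bp, with a median of 374 bp and quartiles of 334 and 460 bp. By class, 255 had 300 to 399 bp, 82 had 400 to 499 bp and 80 had 500 bp or more. In all they covered 173 kb, more than the 133 kb of the 4671 narrow peaks. The widths found only after induction fell into a spike at 28 to 29 bp, a small group near 100 bp, a large group near 200 bp and a declining tail, and the threshold lay in this tail with no gap around it. Just inside it were the 2 peaks of 300 bp, at chr7:31335724-31336023 and chr22:22554196-22554495, and 5 of 301 bp, such as that at chr16:7352137-7352437. Just outside it were 6 peaks of 299 bp, 3 of them at chr14:79006870-79007168, chr9:128007138-128007436 and chr17:53131296-53131594. The plot of peak widths shows both classes.

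**Figure D1:**
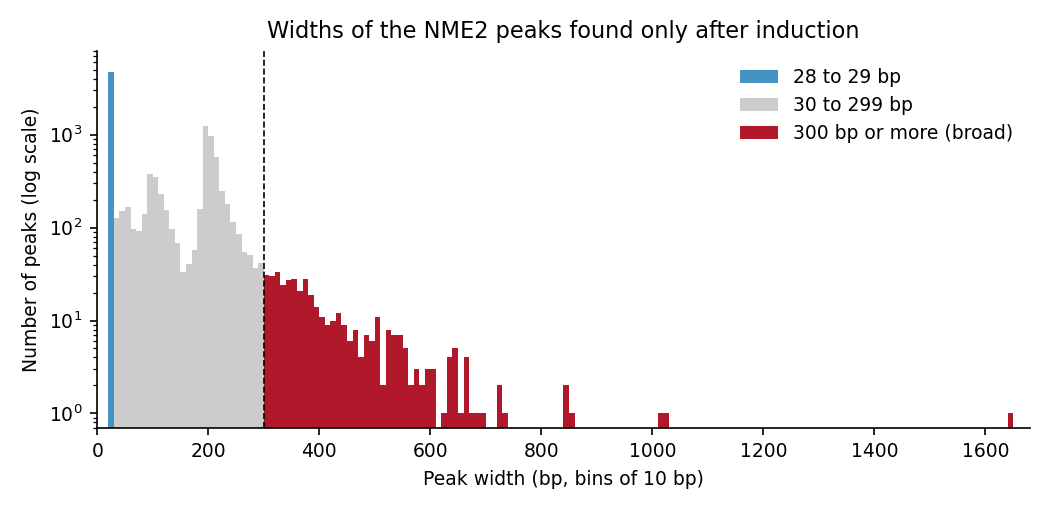
Number of peaks found only after induction (vertical axis, log scale) by peak width in bins of 10 bp (horizontal axis). Blue marks the 4671 peaks of 28 to 29 bp, gray the peaks between, and red the 417 peaks of 300 bp or more right of the dashed threshold, which form the tail of the distribution up to 1646 bp.

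The widest region, of 1646 bp, lay near the start of chromosome 5 (chr5:62912-64557). A further peak of 189 bp followed it after 61 bp, and the nearest peak before induction was 1.72 Mb away. The next widest had 1022 bp (chr6:168741616-168742637) and 1019 bp (chr7:49798506-49799524). The region on chromosome 6 lay 58.1 kb from a peak before induction, and the one on chromosome 7 lay 1.46 Mb from one. Below them came regions of 851 bp (chr21:42585718-42586568), 842 bp (chr7:1300807-1301648) and 841 bp (chr19:59755332-59756172). The other 4 of the 10 widest spanned 699 to 732 bp and lay at chr6:170320563-170321294, chr3:143005980-143006703, chr4:3333832-3334554 and chr9:134324532-134325230. No chromosome held more than 2 of these 10 regions, and the shortest distance of any of them to a peak before induction was 42.3 kb, at the second region on chromosome 6.

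The broad peaks lay near the chromosome ends more often than narrower peaks. Of the 417, 135 (32.4%, interval 28.1 to 37.0%) lay within 5 Mb of the outermost peak of either list on their chromosome, which stands here for the chromosome end. The share was 9.06% (8.27 to 9.91%) for the narrow peaks and 10.2% (9.02 to 11.5%) for the 2348 peaks of 200 to 299 bp. The median distance to the nearer outermost peak was 9.96 Mb for broad, 29.9 Mb for narrow and 29.7 Mb for 200 to 299 bp peaks. The intervals of the broad class did not overlap those of the other two. At the other extreme, 20.6% of the broad and 36.6% of the narrow peaks lay more than 40 Mb inside. This measure was chosen after positions had been seen, and no test was made of it.

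**Figure D2:**
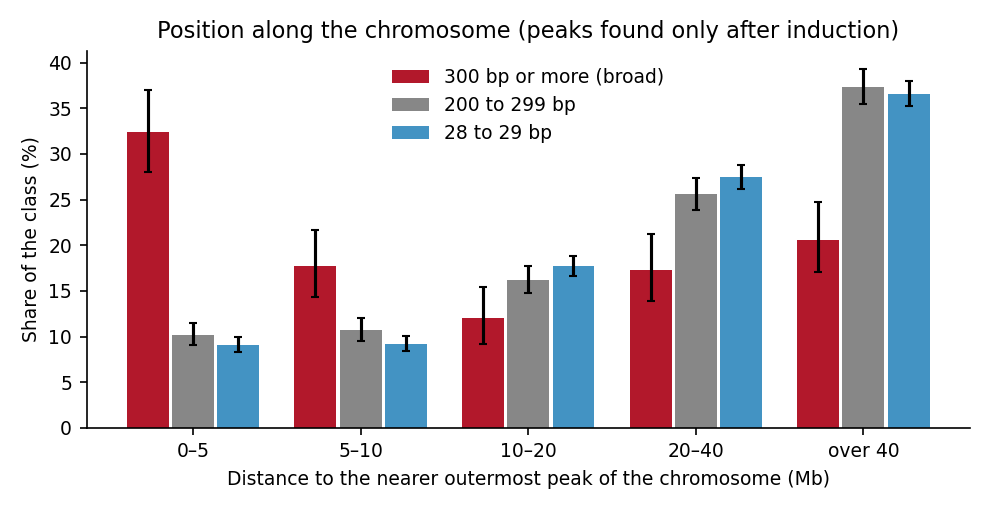
Share of each width class (vertical axis, %) by distance to the nearer outermost peak of the chromosome (horizontal axis, Mb). Red bars are the 417 broad peaks, gray the 2348 peaks of 200 to 299 bp and blue the 4671 peaks of 28 to 29 bp; whiskers are Wilson 95% intervals. Of the broad peaks 32.4% lay in the outer 5 Mb, against 10.2% and 9.06% of the other classes.

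This position was shared by most chromosomes. On 21 of the 23 chromosomes with a broad peak, the share within 5 Mb of an outermost peak was higher for broad than for narrow peaks, and chromosomes 15 and 17 were the 2 exceptions. Chromosome 21 had 12 of its 18 broad peaks there (66.7%) and 12 of its 63 narrow peaks (19.0%). Chromosome 6 had 10 of 22 (45.5%) against 8.73% of its narrow peaks, and chromosome 4 had 7 of 15 (46.7%) against 5.76%. On chromosomes 13, 14, 15, 21 and 22, whose short arms are largely missing from the assembly, the first peak lies near the centromere rather than at a chromosome end.

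The numbers per chromosome differed for few chromosomes. Of 24 chromosomes, 3 (12.5%) had a share of the broad peaks that differed from that of the narrow peaks at an adjusted p under 0.05 (Fisher's exact test, two-sided, Benjamini-Hochberg adjustment over 24), and 8 did so before adjustment. The count depended on the width threshold. With broad peaks counted from 200, 250, 400 or 500 bp, 1, 5, 0 and 0 chromosomes passed. Chromosome 21 held 18 broad peaks (4.32%, interval 2.75 to 6.72%) and 63 narrow peaks (1.35%), a ratio of shares of 3.20 (exact test, adjusted p = 0.00167). Chromosome 10 held 34 broad peaks (8.15%, interval 5.89 to 11.2%) against 4.50% of the narrow peaks (exact test, adjusted p = 0.0138). Chromosome 3 was the one on the low side, with 11 broad peaks (2.64%, interval 1.48 to 4.66%) against 6.53% (exact test, adjusted p = 0.0110). Between their outermost peaks chromosome 21 covered 37.1 Mb, chromosome 10 covered 135.3 Mb and chromosome 3 covered 199 Mb.

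Chromosomes 16, X and 4 completed the 3 largest differences in each direction, and none of them passed the adjusted threshold. Chromosome 16 held 5.04% of the broad and 2.93% of the narrow peaks, chromosome X 2.64% and 5.22%, and chromosome 4 3.60% and 5.95% (exact tests, adjusted p = 0.106, 0.106 and 0.144). Chromosome Y held 34 narrow peaks and 0 of the 417 broad ones, against a narrow share of 0.728% (exact test, adjusted p = 0.262). A count of 0 allows a share of up to 0.719% by the limit of 3 counts, and the Wilson interval reaches 0.913%. Expressed per 100 Mb of span, broad peaks ranged from 5.52 on chromosome 3 to 48.5 on chromosome 21 among the chromosomes that had any. Over the 24 chromosomes the density of broad peaks ran against the span with a Spearman rho of -0.58, and that of narrow peaks with a rho of -0.08. These are descriptions over chromosomes of 1 list that share their libraries.

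**Figure D3:**
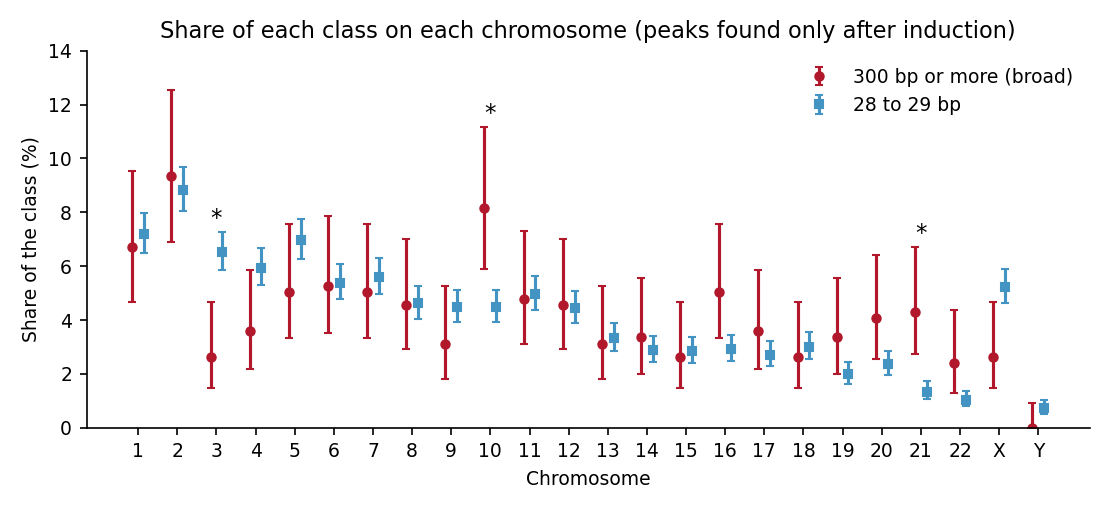
Share of the 417 broad peaks (red circles) and of the 4671 peaks of 28 to 29 bp (blue squares) on each chromosome (vertical axis, %), with Wilson 95% intervals. Asterisks mark chromosomes 3, 10 and 21, which had an adjusted p under 0.05 in Fisher's exact test.

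The chromosomes were also compared without their ends. Without the peaks in the outer 5 Mb, an alternative chosen after seeing the data, 0 of 24 chromosomes had an adjusted p under 0.05 by Fisher's exact test, and the smallest adjusted p was 0.0624, while 5 chromosomes had an unadjusted p under 0.05. This leaves 282 broad and 4248 narrow peaks. The ratio of shares was then 1.77 for chromosome 21 (6 broad peaks), 2.00 for chromosome 10 (24 broad peaks), where it had been 1.81 with all peaks, and 0.519 for chromosome 3 (10 broad peaks). On chromosome 21 all 18 broad peaks lay between 32.8 and 46.3 Mb of a chromosome whose peaks ran from 9.82 to 46.9 Mb. On chromosome 10 the 34 broad peaks ran from 1.70 to 135.0 Mb, and 10 of them lay in the outer 5 Mb.

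Broad peaks also had close neighbors more often. Of the 417, 90 (21.6%, interval 17.9 to 25.8%) had another peak of the list after induction within 1 kb of their edge, against 156 of 4671 narrow peaks (3.34%, 2.86 to 3.89%). The difference of 18.2 percentage points (interval 14.5 to 22.5) passed the test (Fisher's exact test, two-sided, adjusted p = 1.32e-37 over the 6 distances tested). Within 10 kb the shares were 30.5% (127 peaks) and 11.6% (541 peaks), a difference of 18.9 points (interval 14.5 to 23.5; exact test, adjusted p = 8.68e-22). Within 100 kb they were 72.7% and 56.7% (exact test, adjusted p = 2.09e-10). The median gap to the next peak was 35.8 kb for broad, 80.1 kb for narrow and 82.0 kb for 200 to 299 bp peaks.

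The difference was 18.2 points within 1 kb and 18.9 points within 10 kb. Gaps of 1 to 10 kb made up 8.87% of the broad (interval 6.51 to 12.0%) and 8.24% of the narrow peaks (7.49 to 9.07%), and these intervals overlapped. Gaps of 10 to 100 kb made up 42.2% of the broad and 45.1% of the narrow peaks. Gaps over 100 kb were found for 27.3% of the broad and 43.3% of the narrow peaks. These are shares of all peaks of a class. With 21.6% of the broad and 3.34% of the narrow peaks within 1 kb, fewer broad peaks were left for the longer gaps. When the neighbor had to be of the same width class (483 broad and 4908 narrow peaks after induction), the difference within 10 kb was 3.07 points (interval 0.79 to 6.08; Fisher's exact test, p = 0.00842), and with broad peaks counted from 200 bp it was 3.61 points (interval 2.01 to 5.25). Without the outer 5 Mb of the chromosomes it was 15.8 points (Fisher's exact test, p = 1.09e-12).

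**Figure D4:**
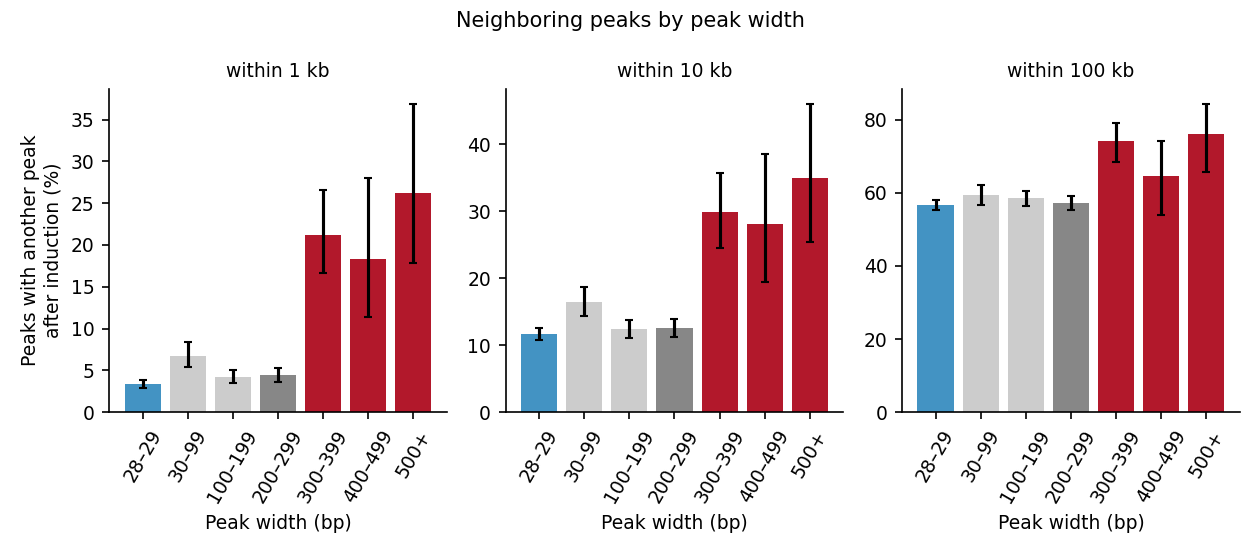
Share of the peaks found only after induction that had another peak after induction within 1, 10 or 100 kb (vertical axes, %, each from 0) by peak width (horizontal axes). Red bars are the broad classes, whiskers Wilson 95% intervals. Within 1 kb the share was 3.34% at 28 to 29 bp, 4.39% at 200 to 299 bp and 18.3 to 26.3% in the 3 broad classes.

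Neither the closeness of neighbors nor the position near the ends began at exactly 300 bp. Of the peaks of 200 to 224 bp, 2.61% had a neighbor within 1 kb and 8.14% lay in the outer 5 Mb. At 250 to 274 bp these shares were 14.8% (interval 10.2 to 21.1%) and 22.2% (16.5 to 29.2%), and at 300 to 324 bp they were 18.7% (11.5 to 28.9%) and 22.7% (14.7 to 33.3%). Regions of 500 bp or more had 26.3% (17.9 to 36.8%) and 38.8% (28.8 to 49.7%). Both shares were thus already higher at 250 bp than at 200 to 224 bp, with intervals that did not overlap, and the intervals of all classes from 250 bp to 349 bp overlapped each other.

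The 90 broad peaks with a neighbor within 1 kb had a median gap to it of 172 bp (quartiles 77 and 383 bp), and 29 of them had one at 100 bp or less. The neighbors had a median width of 135 bp, 23 of them had 28 to 29 bp and 22 were themselves 300 bp or wider (24.4%). Among the neighbors of the 156 narrow peaks 26 had this width (16.7%), and in the whole list after induction 4.18%. Of the 90 neighbors, 10 (11.1%) overlapped a peak before induction, against 4.57% of the list after induction. Among the 90 broad peaks were 9 pairs in which each was the nearest neighbor of the other. Whether such neighbors are separate binding sites was not tested.

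Peaks at most 1 kb apart formed 271 clusters of 2 or more, and 80 of these (29.5%) held a broad peak. These broad peaks were 3.61% of the list after induction. A cluster has 2 or more peaks to hold one, so these shares are not directly comparable, and no test was made. Most of the 80 clusters (67) were pairs, and 4 had 4 peaks or more. The cluster with the most peaks lay at chr13:30314602-30317204, where 5 peaks of 400, 311, 156, 264 and 176 bp followed each other over 2603 bp. At chr17:7019106-7020945 a narrow peak of 28 bp preceded 3 peaks of 314, 404 and 453 bp, of which those of 314 and 404 bp are among the regions described here. At chr2:240502155-240504485 there were 4 peaks of 551, 198, 396 and 89 bp, with the first counted here. The 396 bp and the 453 bp peak overlapped a peak before induction and were therefore not counted.

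Some broad peaks lay next to each other. Of 394 successive pairs of broad peaks on the same chromosome, 10 were at most 1 kb apart, 14 at most 10 kb and 29 at most 100 kb, and the median gap was 2.17 Mb. The closest pair was that on chromosome 13, 2 bp apart. A pair on chromosome 16 (chr16:2826996-2827502 and chr16:2827506-2827876) was 3 bp apart. On chromosome 1 a pair of 512 and 326 bp (chr1:7475251-7475762 and chr1:7475813-7476138) lay 50 bp apart, and a pair of 351 and 424 bp (chr1:167856554-167856904 and chr1:167856961-167857384) 56 bp apart. The fifth pair was that on chromosome 17, 65 bp apart. Each of these pairs carried running numbers at least 1249 apart.

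In bins of 1 Mb, 258 broad peaks (61.9%) were the only one of their bin, 53 bins held 2 and 15 bins held 3 or more. The fullest were chromosome 16 from 85 to 86 Mb and chromosome 1 from 7 to 8 Mb, with 5 broad peaks each. Bins with 4 each were chromosome 2 from 239 to 240 Mb and chromosome 9 from 137 to 138 Mb. Chromosome 21 from 43 to 44 Mb also held 4, as did a bin on chromosome 5, whose regions lay between 177339098 and 177907417. On chromosome 16 the 5 regions had 313 to 644 bp and were spread over the bin, in a bin with 14 peaks after and 1 before induction. On chromosome 1 the bin had 11 peaks after and 0 before induction, and 4 of the 5 regions lay between 7462540 and 7481109. On chromosome 2 the 4 regions had 343 to 491 bp, in a bin with 11 peaks after and 2 before induction. A broad peak had a median of 5 other peaks after induction in its bin, and a narrow peak of 4.

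Although none overlapped a peak before induction, broad peaks lay closer to such peaks than narrow ones did. Of the 417, 125 (30.0%, interval 25.8 to 34.5%) had a peak before induction within 100 kb, against 849 narrow peaks (18.2%, 17.1 to 19.3%), a difference of 11.8 points (interval 7.45 to 16.5; Fisher's exact test, adjusted p = 3.90e-08). The overlap rule bears on this difference, which was 18.9 points (interval 14.5 to 23.5) when 50% of each peak had to be covered for a peak to count as shared, and 9.84 points when a gap of at most 1000 bp counted as shared. Within 10 kb the shares were 8.39% and 4.43% (exact test, adjusted p = 0.000842), and within 1 kb 6.00% and 2.98% (exact test, adjusted p = 0.00207). The peaks of 200 to 299 bp had 17.5%, 3.07% and 0.980% at these distances. Broad peaks were more than 1 Mb from any peak before induction in 10.3% of cases, and narrow peaks in 21.6%. When broad peaks were counted from 200 bp, the difference within 100 kb was 1.21 points (Fisher's exact test, p = 0.196), since that class is mostly 200 to 299 bp peaks.

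For part of the class the peak of the other list was very near. For 25 broad peaks a peak before induction lay within 1 kb, at a median gap of 268 bp. The nearest was at chr17:8673248-8673776, a region of 529 bp with a peak of 198 bp before induction only 26 bp away. At chr10:80756153-80756568 the gap was 36 bp and at chr11:65358261-65358926 it was 86 bp. These 25 lay beside 22 different peaks before induction, which had a median width of 60.5 bp; 10 of the 22 had 28 to 29 bp, and 0 had 300 bp or more, a width that 2.20% of the list before induction had. Of these 25 broad peaks, 21 also had another peak after induction within 1 kb. For 12 of the 25, the nearby peak before induction itself overlapped another peak after induction. If a gap of at most 1000 bp is counted as shared, the class shrinks to 392 broad peaks. If 50% of each peak has to be covered by the other, it grows to 482.

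The running number also differed between the classes, with quartiles that overlapped. The numbers ascend through the list and reach 16135, and nothing says what they rank, so they are given as a description from the same peak calling as the width. The median was 3522 for broad peaks (quartiles 1746 and 5803) and 6847 for narrow peaks (3224 and 10758). The peaks of 200 to 299 bp lay between, at 5020, and those of 100 to 199 bp were latest, at 8632. Within the broad class the number fell with width, with medians of 4020 at 300 to 399 bp, 3098 at 400 to 499 bp and 1951 at 500 bp or more. Over the 417 regions the Spearman rho of width and running number was -0.27, and over all 11017 peaks found only after induction it was -0.09.

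Broad peaks were absent from the very start of the list. The first 432 peaks held none of them and no broad shared peak, and the widest of these 432 had 203 bp. Among them 192 (44.4%) overlapped a peak before induction, against 4.57% of the whole list. The lowest running number was 433, at chr16:17731204-17731672, followed by 446 at chr17:73225887-73226464 (578 bp) and 493 at chr13:33550777-33551242 (466 bp). Next came 553 at chr17:7019639-7019952, 619 at chr10:105785739-105786080 and 691 at chr20:58658553-58658969. The remaining 4 of the 10 lowest, from 738 to 762, were chr14:104064727-104065206, chr6:2334125-2334453, chr1:25967904-25968567 and chr15:99143758-99144281. These 10 regions had 314 to 664 bp, so none was among the 10 widest.

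With the list divided into 10 equal parts by running number, the share of broad peaks among those found only after induction was 6.46% in the first, highest in the second at 8.53% (interval 7.02 to 10.3%) and 0.350% (0.136 to 0.896%) in the last. The first 5 parts held 334 of the 417 (80.1%), against 46.6% of the narrow peaks. The share of narrow peaks was highest at both ends of the list. It was 52.2% in the first part, 36.6% in the fourth and 52.1% in the last. By count these parts held 445, 413 and 595 narrow peaks. The first part held 303 peaks that overlapped one before induction, and the last held 11. The shares in the first part, broad and narrow, thus rest on 852 peaks, and those in the last on 1143.

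**Figure D5:**
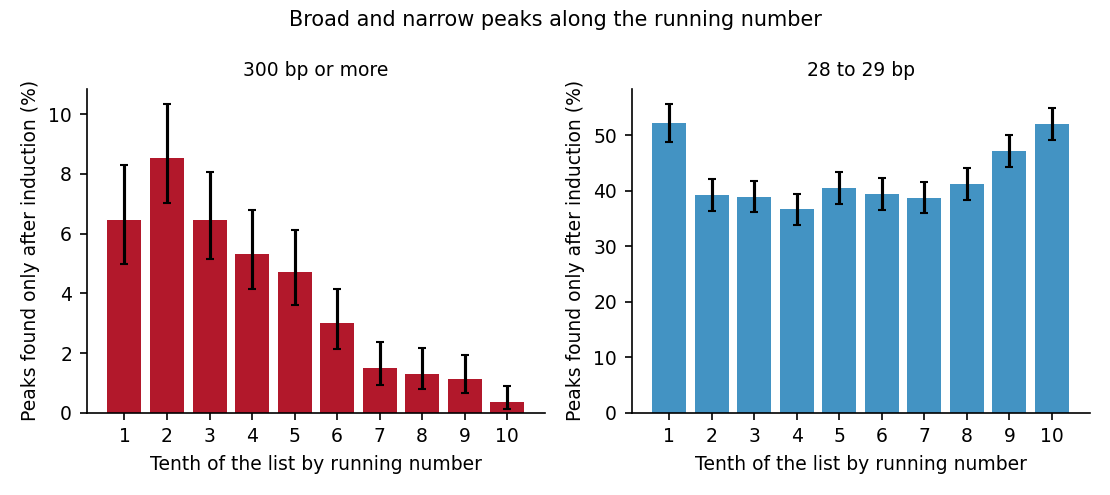
Share of broad (left, red) and of 28 to 29 bp peaks (right, blue) among the peaks found only after induction (vertical axes, %) in each of 10 equal parts of the list by running number (horizontal axes), with Wilson 95% intervals. Broad peaks fell from 8.53% in the second part to 0.350% in the last, and narrow peaks exceeded 50% in the first and last parts.

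The spacing held in most parts of the list. In 4 equal parts of the list by running number, chosen after seeing the data, 28.2%, 36.6%, 19.0% and 36.0% of the broad peaks had a neighbor within 10 kb, against 12.0%, 10.2%, 11.2% and 12.7% of the narrow ones. The difference did not pass the test in the third of these, with 11 of 58 broad peaks (7.77 points, interval -0.50 to 19.8; Fisher's exact test, p = 0.0887).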

How the data were processed

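NME2 ChIP-seq libraries and IgG controls of A549 cells were grouped by the sample titles. As stated in the methods of the study, the authors clipped the reads, aligned them with MAQ to hg18, called regions enriched over IgG with CisGenome, refined the boundaries and removed regions supported by a single strand. How the replicates were combined is not given in the sources used here. They deposited 1 list per state. The deposited columns hold a running number and the coordinates of each peak, with no header. Starts were read as counted from 0, since the smallest is 0, and positions are printed counting from 1.

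Analyses ran in python 3.11.15 (pandas 2.3.3, scipy 1.17.1, numpy 2.4.6, figures by matplotlib 3.10.9). Overlap meant at least 1 shared bp; bedtools 2.31.1 found the same 528 overlapping peaks after induction. Gaps were measured between edges. Shares were compared by two-sided Fisher's exact tests with Benjamini-Hochberg adjustment over the 24 chromosomes or over the 6 distances. The interval of a difference was combined from both Wilson intervals. The measures were tested on simulated data. The class of peaks and the tests were chosen with earlier results of these data known. Regions were named by rule: the 10 widest, the 10 lowest running numbers and 3 on each side of the width threshold. Named likewise were the 5 closest pairs, 3 chromosomes in each direction and the 3 fullest bins, extended to bins tied with the third. The clusters and the regions nearest to peaks before induction were named after their values were seen. Alternatives changed the width, the definition of overlap, the distances, the chromosomes and the part of the list. No hg18 sequence or annotation was at hand, so motifs, genes and promoters were not analysed here.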

Additional observations from a re-analysis of the deposited data

How the results depend on the processing

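No paired analysis was possible because only 1 list per state was at hand, without values for single libraries, and leaving out a library was not possible either. The planned sequence and promoter alternatives were not run, for want of hg18 sequence and annotation. Over 6 results and 147 alternatives, 123 stayed on the same side of the threshold or within the tolerance, 21 moved, 3 lost the threshold and 0 reversed. Many of the 123 left out 1 chromosome in turn, for the share of broad peaks, the neighbor difference and the running number. Each of these removed only a small part of the list. Of the 123, 5 changed a difference in size by over 1.5 times. The neighbor difference within 10 kb (18.9 points) was 3.61 from 200 bp. It was 3.07 for a neighbor of the same width class. There the neighbors came from 483 broad or 4908 narrow peaks, so this difference is not like for like with the 18.9 points. The difference in peaks before induction within 100 kb (11.8 points) was 18.9 with 50% reciprocal overlap, 7.56 without peaks that have a neighbor within 1 kb and 3.96 at 10 kb. By construction the number of broad peaks followed the width threshold, with 2765 from 200 bp, 686 from 250 bp, 162 from 400 bp and 80 from 500 bp. The share of broad peaks was then 25.1%, 6.23%, 1.47% and 0.726%, and it was 4.23% with 50% reciprocal overlap and 6.28% in the first 50% of the list. The number of chromosomes that passed Fisher's exact test (3 of 24) was 1, 5, 0 and 0 at these widths, with 4, 9, 0 and 2 at an unadjusted p under 0.05. It was 5 with reciprocal overlap, 5 in the first 50% of the list, 1 without peaks that have a neighbor within 1 kb, and 0 (5 unadjusted) without the outer 5 Mb. The difference in median running number (broad minus narrow, -3325) was -2071, -4359 and -4897 from 200, 400 and 500 bp. The difference in neighbors within 10 kb lost the threshold in the third of 4 equal parts of the list (7.77 points). It was 2.79 points without peaks that have a neighbor within 1 kb, which removes peaks by the measure itself and so tests nothing. The threshold was also lost for the difference in peaks before induction within 100 kb from 200 bp (1.21 points). Without any single chromosome the neighbor difference was between 17.2 and 19.6 points. The lists give no reads per peak, and binding too weak to be called was not detectable.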

Other observations

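Broad peaks shared by both states, or found before induction, showed further values. Of the 483 peaks of 300 bp or more after induction, 66 overlapped a peak before induction and were left out by the choice by overlap. The share with such an overlap was 3.77% at 200 to 299 bp and 7.94% at 300 to 399 bp. At 400 to 499 bp it was 18.8%, and at 500 bp or more 23.8%. This was not tested. The 66 had a median width of 456 bp, a highest width of 1330 bp and a median running number of 2137, and 30.3% (20.6 to 42.2%) of them had another peak after induction within 10 kb. Their widest partners before induction had a median width of 43 bp. For 29 of the 66 the widest partner had 28 to 29 bp, for 35 it lay between the narrow and the broad class, and for 2 it had 300 bp or more.

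In the list before induction 56 of 2541 peaks (2.20%, interval 1.70 to 2.85%) had 300 bp or more, against 4.18% (3.83 to 4.56%) after induction. Of these 56, 53 (94.6%) overlapped no peak after induction, as did 78.9% of all 2541 peaks before induction. The 56 had a median running number of 1275 in a series that reaches 3191, and that of the 28 to 29 bp peaks before induction was 1073.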
